A study of Mus musculus with 6 samples.

Results

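Transcripts of the extracellular matrix and of its integrin receptors were followed in Neuro2a cells, a mouse neuroblastoma line, grown with or without D-serine. D-serine, the enantiomer of the protein amino acid L-serine, acts in the brain together with glutamate on NMDA receptors. The genes were chosen by symbol, as collagen chains (Col), laminin chains (Lama, Lamb and Lamc), integrin subunits (Itga and Itgb), fibronectin (Fn1), nidogens (Nid1 and Nid2) and perlecan (Hspg2). This gave 85 of the 24391 genes in the count table, namely 44 collagen chains, 11 laminin chains, 26 integrin subunits and 4 glycoprotein genes. Poly(A) RNA had been sequenced in 6 libraries, 3 from vehicle-treated control cells and 3 from cells given 5 mM D-serine. All 6 were of the same line, with no genetic change named in the labels, and before harvest each culture had spent 18 h in a medium written as D-MEM(-SG) with 10% serum, so the control cells had been through the same change of medium. The labels do not say whether the 3 replicates of a group were separate cultures, so the p-values below measure the spread between these libraries, which may be technical.

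The matrix is a mesh of secreted proteins outside the cell. In a basement membrane, a sheet of type IV collagen and a sheet of laminin are tied together by nidogen and perlecan, while fibronectin and fibrillar collagens form fibres elsewhere. Collagens fold as triple helices of 3 chains, and a laminin is a cross-shaped trimer of 1 alpha, 1 beta and 1 gamma chain. Integrins are cell-surface pairs of 1 alpha and 1 beta subunit that bind these proteins and connect them to the actin cytoskeleton. Neuroblastoma cells grow attached and lay down matrix of their own.

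Total counts lay between 32518483 and 40024265 per library, and the members took 0.277% to 0.326% of them, with the lowest share in D-serine replicate 1. That library stood apart from its fellows, with a chi-square statistic of 13.9 and 17.7 per degree of freedom against the other D-serine libraries and 3.88 to 6.54 within the control group. It also had the steepest relation of counts to gene length: log2 level changed by -0.0717 per doubling of exonic length relative to the mean of all libraries, against -0.00397 and 0.00581 in the other D-serine libraries and 0.0152 to 0.0356 in the controls. Results are therefore also given without D-serine replicate 1 and with each library's length trend removed. The label of neuroblastoma was met by some of its 14 markers and not by others. Hand2, a transcription factor of sympathetic neuroblasts, stood at 242 CPM (counts scaled to the library total, not to length) in control and 256 CPM in D-serine cells and Chgb, a granule protein, at 274 and 276 CPM. Th and Dbh, enzymes of catecholamine synthesis, stood at 1.49 and 1.53 CPM in control, and the neurofilament genes Nefl and Nefm had at most 2 and 6 counts in a library. The summed list was at 1957 to 2050 CPM in control and 2048 to 2125 CPM in D-serine libraries, so the groups overlapped only at their edges. Summed markers of fibroblasts were at 947 to 984 CPM in control and 959 to 1072 CPM in D-serine libraries, nearly all of it Vim, with Thy1, Lum, Twist1 and Twist2 at 0 in all 6. Markers of glia (18.5 to 22.1 against 19.2 to 22.7 CPM), endothelium (4.99 to 6.20 against 4.74 to 5.82 CPM), leukocytes (0.940 to 2.08 against 0.968 to 1.53 CPM) and epithelium (0.512 to 1.27 against 0.586 to 1.31 CPM) overlapped between the groups. Among the markers, Tubb3, a neuronal tubulin, rose (log2 fold change 0.25, adjusted p = 0.0148) and Pdgfrb, a receptor of mesenchymal cells, fell (log2 fold change -0.37, adjusted p = 0.0370, edgeR quasi-likelihood test). Whether either shift had a part in the results below was not tested.

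Levels were compared between genes as RPKM, counts scaled to the library total and to exonic length. Matrix transcripts of these cells centred on 1 network collagen pair, 1 laminin gamma chain, the type VI collagen chain Col6a5 and fibronectin, and the receptors on 1 integrin pair. Itgb1, the beta 1 subunit shared by many matrix receptors, had the highest mean over the 6 libraries, at 107 RPKM, and took 76.1% to 78.9% of the summed beta subunit RPKM. Itga6, the alpha 6 subunit of laminin receptors, followed at 66.1 RPKM and took 68.8% to 71.4% of the alpha subunit sum. Col4a2 (63.7 RPKM) and Col4a1 (55.2 RPKM), the alpha 2 and alpha 1 chains of the common type IV collagen, together took 67.2% to 70.5% of the collagen sum. Lamc1, the laminin gamma 1 chain, stood at 39.1 RPKM, Col6a5, a chain of beaded filaments, at 33.1 RPKM, Fn1 at 31.8 RPKM and Itgb5, a partner of alpha V, at 27.6 RPKM. A second tier comprised Lama5 at 12.1 RPKM, Itgav at 10.6 RPKM, Lama4 at 8.96 RPKM, Itga1 at 5.90 RPKM, Col11a2 at 5.14 RPKM, Hspg2 at 4.87 RPKM and Itga3 at 4.07 RPKM. Each remaining member had a mean under 4 RPKM.

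**Figure D1:**
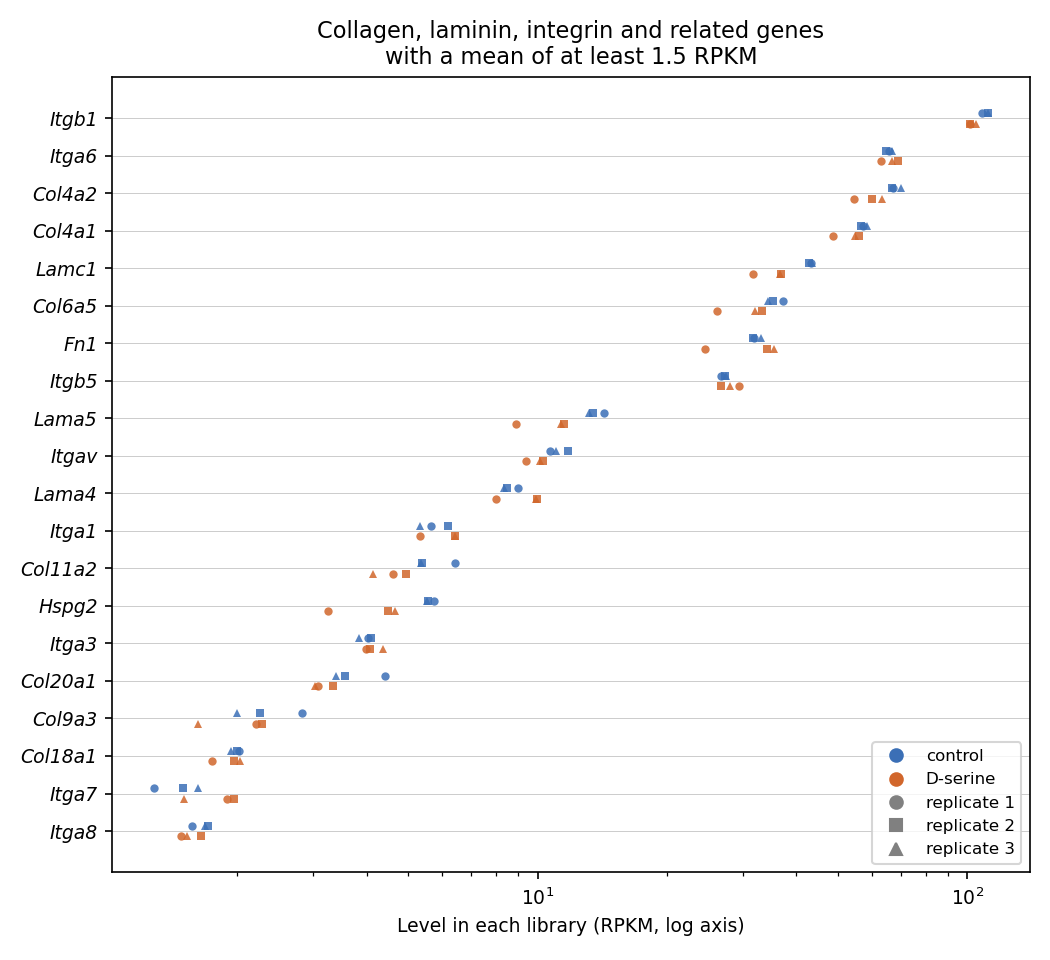
Levels of tested members with a mean of at least 1.5 RPKM in each library, in RPKM on a log axis, with circles, squares and triangles for replicates 1, 2 and 3 of control (blue) and D-serine (orange). Itgb1, Itga6, Col4a2 and Col4a1 lie highest, and the spread between libraries is small beside the differences between genes.

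Several partners that textbook assemblies call for were scarce, and these genes were singled out after their values were seen. Beta chains took 0.703% to 0.957% of the summed laminin RPKM, beside 61.1% to 65.2% for Lamc1. Lamb2 had 78 to 95 counts per library, Lamb1 had 1 to 12 and Lamb3 had 4 to 14. Nidogens were close to the floor, with 4 to 20 counts of Nid1 and at most 4 of Nid2 in any library, where the limit that a count of 0 allows (3 counts) is 0.0745 to 0.0930 CPM. Col6a5 stood beside Col6a6 at 0.314 RPKM and Col6a1 at 0.189 RPKM, and Col6a3 had no count. No count was seen in any library for 6 collagen chains (Col9a1, Col3a1, Col5a2, Col6a3, Col28a1 and Col4a5), and 26 members, these included, stayed under 10 counts in all 6 libraries. The 32 members too low to be tested included the fibril chains of type I collagen, Col1a1 with 4 to 13 counts and Col1a2 with 0 to 4.

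Over the 6 libraries, 6 matrix genes passed the test as lower with D-serine and none as higher. Of the 53 members with enough counts to test, 6 fell and 0 rose at an adjusted p under 0.05 (edgeR quasi-likelihood test, Benjamini-Hochberg adjustment over all 13366 genes tested). That is 11.3% of tested members lower, where 4.90% of all genes tested were lower and 4.84% higher (9.74% in either direction). The 6 were Lamc1, Lama5, Hspg2, Col4a2, Col7a1 and Col11a2, 2 laminin chains, perlecan and 3 collagen chains, and no integrin subunit was among them. At an unadjusted p under 0.05, 11 members were lower and 2 higher (14.4% and 13.8% of all genes), DESeq2 called 8 lower (7.58% of all genes) and limma-voom 6 (4.99%), and both called 0 higher (5.74% and 4.44% of all genes). Libraries of the groups did not overlap for 11 tested members that were lower (20.8%, against 16.6% of all genes) and 4 that were higher (16.2% of all genes). Leaving out a control library lowered the count, to 1, 0 and 3 lower members without control replicates 1, 2 and 3 (0.332%, 0.155% and 1.47% of all genes). Lama4 passed as higher with the length trend removed and, with Fn1, without D-serine replicate 1. The median log2 fold change (D-serine over control) of the 53 was -0.046, beside 0.0053 for all genes tested. In bulk RNA, fewer cells of a type and less RNA per cell cannot be told apart.

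**Figure D2:**
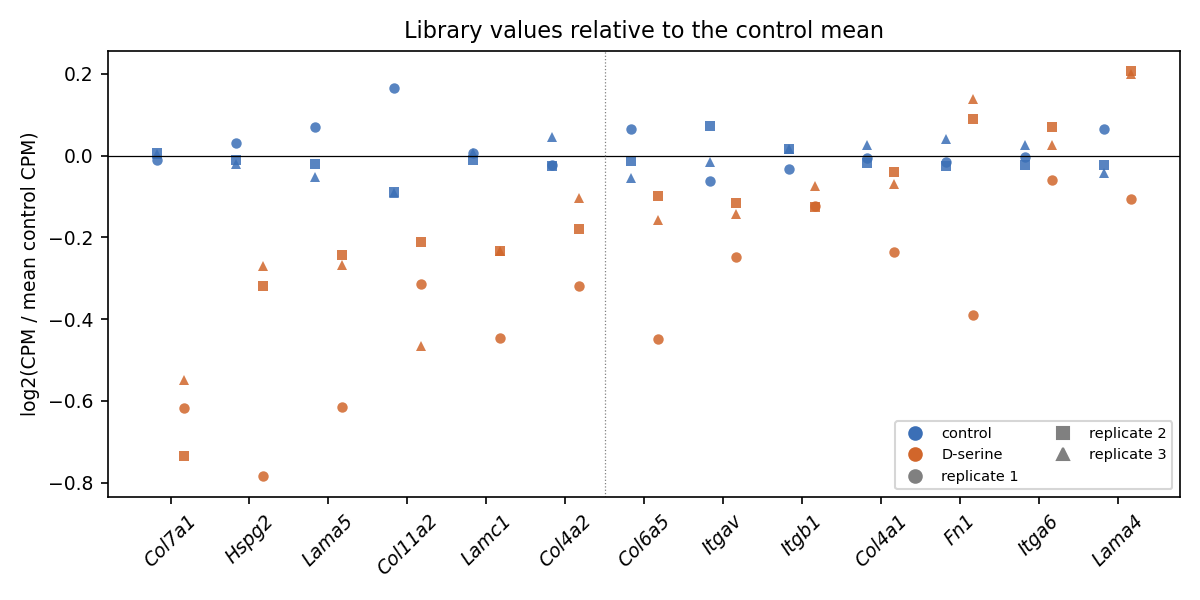
CPM of 13 members in each library relative to the mean of the 3 control libraries, on a log2 axis, with circles, squares and triangles for replicates 1, 2 and 3 of control (blue) and D-serine (orange). The 6 members that passed the test stand left of the dotted line. All 3 D-serine marks of Lamc1, Lama5, Hspg2, Col4a2, Col7a1 and Col11a2 lie under the control marks, and D-serine replicate 1 lies lowest for Lamc1, Lama5, Hspg2 and Col4a2.

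Among laminin chains, which are secreted as trimers, Lamc1 and Lama5 fell. Lamc1 encodes the gamma 1 chain, present in most laminins. It was at 331, 327 and 331 CPM in the controls (replicates 1 to 3, in order, here and below) and at 242, 280.2 and 280.0 CPM with D-serine. The controls lay within a few CPM of each other, and the D-serine libraries were all lower, replicate 1 most. Lamc1 fell by 18.8% (log2 fold change -0.30, SE 0.054, adjusted p = 0.0100). Its adjusted p was 0.0544 without control replicate 1 and 0.0540 without control replicate 2. In the deposited table Lamc1 spans chromosome 1, 155066052 to 155179916 (minus strand). The build of the deposited coordinates is not settled, since the submitters' processing notes name GRCm38 but only 313 of 23049 gene starts match RefSeq GRCm38.p6, so they are given as deposited. Lama5, the alpha 5 chain of basement membranes in many adult tissues, was at 163, 153 and 149.6 CPM in the control libraries and at 101, 131 and 129 CPM in the D-serine libraries. Again the groups did not overlap and D-serine replicate 1 was lowest. Lama5, deposited at chromosome 2, 179911078 to 179960564 (minus strand), fell by 22.4% (log2 fold change -0.37, SE 0.079, adjusted p = 0.0166, and 0.0763 and 0.0654 without control replicates 1 and 2).

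Lama4, the alpha 4 chain found in blood vessels and nerves, did not pass the test over the 6 libraries. It was at 54.6, 51.4 and 50.6 CPM in control and 48.5, 60.2 and 59.9 CPM in D-serine libraries, where D-serine replicate 1 lay under all controls and the other 2 above them (log2 fold change 0.11, SE 0.076, adjusted p = 0.381). Without D-serine replicate 1 Lama4 rose, by 0.20 on the log2 scale (adjusted p = 0.0156), and with the length trend removed over all 6 libraries it rose by 0.18 (adjusted p = 0.0349). Of the 6 laminin chains tested over the 6 libraries, 2 fell (33.3%, against 4.90% of all genes) and 0 rose (4.84% of all genes). The remaining alpha chains Lama1, Lama2 and Lama3 had at most 12 counts in a library.

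Ratios between chains within a library do not depend on how libraries are scaled. They are given with no test, and the ratios of Lama5 to Lama4 and Lama4 to Lamc1 were chosen after the values were seen. The RPKM of Lama5 was 1.58, 1.58 and 1.57 times that of Lama4 in the controls and 1.11, 1.15 and 1.14 times with D-serine. The D-serine values, replicate 1 included, lay far below the controls compared with the spread in either group (mean ± SD 1.58 ± 0.00812 and 1.14 ± 0.0234, n = 3 each). Lama4 over Lamc1 was 0.208, 0.198 and 0.193 in control and 0.253, 0.271 and 0.270 in D-serine libraries, higher in each D-serine library than in each control. Lama5 over Lamc1 overlapped between the groups, at 0.329, 0.313 and 0.303 and 0.280, 0.313 and 0.308. Lama5 has 11388 exonic bases, Lamc1 7622 and Lama4 6046, so the ratios set longer against shorter transcripts. With the length trend removed the log2 fold changes were -0.22 for Lama5, -0.20 for Lamc1 and 0.18 for Lama4, all 3 past the threshold and still of opposite sign.

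**Figure D3:**
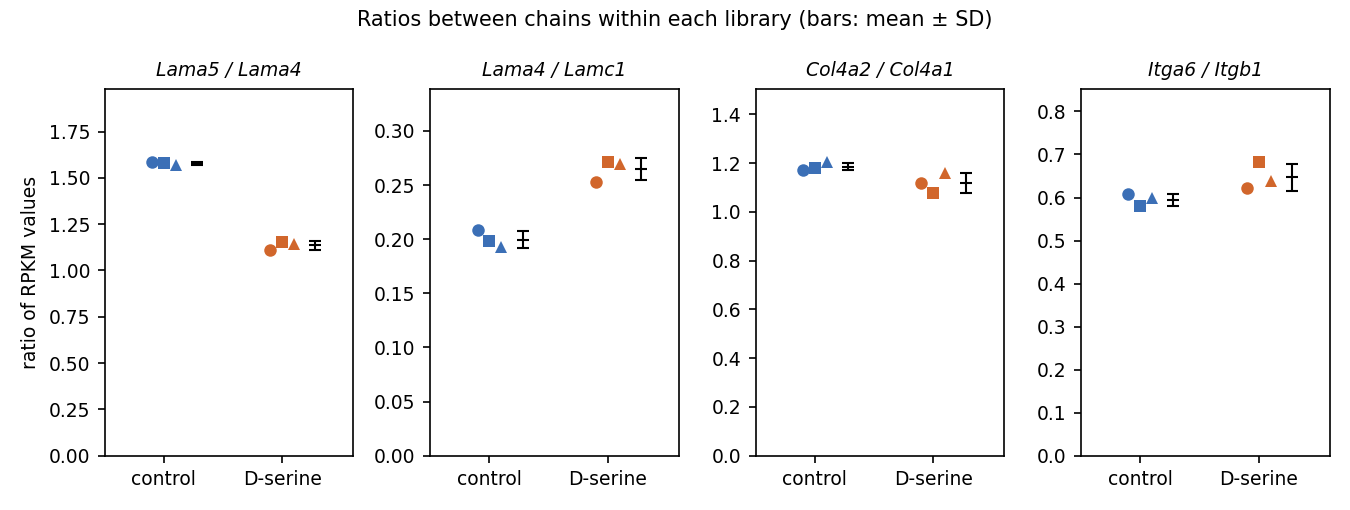
Ratios of RPKM between chains or subunits within each library, with circles, squares and triangles for replicates 1, 2 and 3 and bars for mean ± SD, on axes that start at 0. The Lama5 to Lama4 ratio lies at 1.57 to 1.58 in control and 1.11 to 1.15 in D-serine libraries, while Lama4 to Lamc1 lies higher in the D-serine libraries.

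Perlecan, encoded by Hspg2, is a very large heparan sulfate proteoglycan that binds laminin and type IV collagen. Hspg2 was at 81.2, 78.9 and 78.4 CPM in control and at 46.1, 63.7 and 65.9 CPM in D-serine libraries. The controls were close together and D-serine replicate 1 was far under the other 2. It fell by 26.3% (log2 fold change -0.44, SE 0.10, adjusted p = 0.0193). The fall was -0.29 without D-serine replicate 1, with an adjusted p of 0.000666, and the adjusted p was 0.0769, 0.0713 and 0.0543 without control replicates 1, 2 and 3. Hspg2 has the longest transcript of all 85 members, with 14177 exonic bases, and is deposited at chromosome 4, 137024718 to 137126545 (plus strand). Fibronectin, an adhesive dimer that assembles into fibres through integrins, was at 268, 267 and 279 CPM in control and 207, 289 and 298 CPM in D-serine libraries. D-serine replicate 1 lay lowest of the 6 and the other D-serine libraries lay highest, so the groups overlapped (log2 fold change -0.035, SE 0.10, adjusted p = 0.855). Without D-serine replicate 1, Fn1 rose by 0.11 on the log2 scale (adjusted p = 0.0392). With the length trend removed over all 6 libraries it differed by 0.073 (adjusted p = 0.445). Its direction thus depends on that library and on the length trend. Nid1, at 4 to 8 counts in control and 10 to 20 in D-serine libraries, had a log2 fold change of 1.27 (SE 0.50, adjusted p = 0.122).

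The 2 chains of the common type IV collagen are encoded side by side and are read in opposite directions from a shared control region. In RefSeq (GRCm38.p6) their starts lie 21 bases apart, at chr8:11312805 for Col4a2 (plus strand) and chr8:11312826 for Col4a1 (minus strand), so that the first bases of the 2 transcripts overlap there. Col4a2 was at 430.4, 429.8 and 451 CPM in control and 350.3, 386 and 407 CPM in D-serine libraries, all 3 D-serine values under all 3 controls. It fell by 12.8% (log2 fold change -0.20, SE 0.053, adjusted p = 0.0342), but not without control replicates 1, 2 or 3 (adjusted p = 0.0932, 0.105 and 0.111), nor with libraries scaled by upper quartile or by total (0.0503 and 0.0514). Its neighbour Col4a1 was at 378, 375 and 386 CPM in control and 322, 369 and 362 CPM in D-serine libraries. These groups did not overlap either, but the difference did not pass the test (log2 fold change -0.11, SE 0.051, adjusted p = 0.167). The ratio of Col4a2 to Col4a1 RPKM was 1.17, 1.18 and 1.20 in control and 1.12, 1.08 and 1.16 in D-serine libraries, lower in each of the latter. The genes are deposited at chromosome 8, 11198423 to 11312826 (minus strand) and chromosome 8, 11312829 to 11449287 (plus strand), and have 6615 and 6426 exonic bases.

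Col7a1 had the largest fall of the members that passed the test. It encodes type VII collagen, the anchoring fibril that fastens the basement membrane of skin to the tissue beneath. Counts were 277, 322 and 323 in the controls and 221, 191 and 238 with D-serine, or 8.58, 8.68 and 8.68 and 5.63, 5.19 and 5.91 CPM. The controls were nearly equal and D-serine replicate 1 lay between the other 2, unlike for Lamc1, Lama5 and Hspg2. Col7a1 fell by 35.4% (log2 fold change -0.63, SE 0.11, adjusted p = 0.00777), and without control replicate 2 its adjusted p was 0.0501. Its exons share 36 of 9198 bases with the microRNA gene Mir711 on the same strand, deposited within chromosome 9, 108855790 to 108886920 (plus strand). Col11a2, a chain of the thin fibrils of cartilage, was at 35.9, 30.1 and 30.1 CPM in control and 25.8, 27.7 and 23.2 CPM in D-serine libraries. Control replicate 1 was well above the other controls, and the groups did not overlap. Col11a2 fell by 20.2% (log2 fold change -0.33, SE 0.085, adjusted p = 0.0316), and its adjusted p was 0.137, 0.0719, 0.0555 and 0.115 without control replicates 1, 2 and 3 and without D-serine replicate 3. It is deposited at chromosome 17, 34176382 to 34203187 (plus strand).

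The promoters of 3 genes that fell are shown so that their makeup can be compared, as the 200 bases before the RefSeq start (GRCm38.p6), 5′ to 3′ on the strand of the gene, with GC boxes (GGGCGG on either strand, the core of a binding site for Sp1-type factors) in capitals. They are chr17:34038938-34039137 (plus strand) for Col11a2, chr9:108953386-108953585 (plus strand) for Col7a1 and chr2:180225860-180226059 (minus strand) for Lama5.
Col11a2: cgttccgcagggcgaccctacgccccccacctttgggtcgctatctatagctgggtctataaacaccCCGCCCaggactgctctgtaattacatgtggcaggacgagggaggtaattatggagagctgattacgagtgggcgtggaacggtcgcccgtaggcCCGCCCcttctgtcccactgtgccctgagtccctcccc
Col7a1: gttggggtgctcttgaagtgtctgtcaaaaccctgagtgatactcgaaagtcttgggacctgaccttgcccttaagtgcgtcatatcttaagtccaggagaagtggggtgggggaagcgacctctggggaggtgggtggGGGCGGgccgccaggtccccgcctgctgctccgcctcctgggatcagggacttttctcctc
Lama5: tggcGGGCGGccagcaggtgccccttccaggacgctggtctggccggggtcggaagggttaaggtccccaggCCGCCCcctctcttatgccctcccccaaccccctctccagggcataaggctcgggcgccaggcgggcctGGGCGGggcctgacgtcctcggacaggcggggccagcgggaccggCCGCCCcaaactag
Lama5 had 4 GC boxes, Col11a2 had 2 and Col7a1 had 1. Within 250 bases of the start, Hspg2 had 5, Col4a2 had 2 and Col4a1 had 0, and 32.7% of 32851 RefSeq windows of that length hold at least 1. TATAAA, found in 12.4% of windows, occurred in that of Col11a2, and CCAAT, found in 33.8%, in those of Col7a1, Col4a1 and Col4a2. TGATGNAA, a pattern bound by ATF4 and its partners and present in 3.45% of windows, occurred in none of the 6 windows found for the 7 genes looked up, the 7th being Lamc1. Both strands were searched, and a match describes the letters and not a bound site.

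The other collagens gave no further call. Of 22 collagen chains tested, 3 fell (13.6%, against 4.90% of all genes) and 0 rose. A negative log2 fold change was seen for 16 of the 22 (72.7%, against 48.5% of all genes), and for 14 of 23 without D-serine replicate 1 (60.9%, against 48.8% of all genes). Most of these chains had at least 4000 exonic bases. Of all genes of 4000 to 6000 bases 60.6% were negative, and of those from 6000 bases on 75.6%. Without D-serine replicate 1 these shares were 54.4% and 65.3%. Col6a5 came nearest to a further call, at 347, 329 and 319 CPM in control and 243, 309.9 and 298 CPM in D-serine libraries, without overlap (log2 fold change -0.23, SE 0.073, adjusted p = 0.0648). Its fall passed in 4 of 20 alternatives, among them without D-serine replicate 1 (adjusted p = 0.0321), without D-serine replicate 2 (0.0218) and with DESeq2 (0.0185). With the length trend removed its log2 fold change was -0.10 (adjusted p = 0.0532, edgeR). With D-serine replicate 1 left out as well it was -0.067 (adjusted p = 0.162, edgeR). Col20a1, of the collagens that attach to fibrils, was at 18.5, 14.9 and 14.2 CPM in control and 13.0, 14.0 and 12.7 CPM in D-serine libraries (log2 fold change -0.26, SE 0.10, adjusted p = 0.113). Col18a1, the precursor of endostatin, differed by -0.051 (SE 0.090), Col9a3 by -0.21 (SE 0.16), the transmembrane Col17a1 by -0.12 (SE 0.13) and Col26a1 by -0.19 (SE 0.21) on the log2 scale. Among those with fewer counts, Col5a3 differed by 0.23 (SE 0.15), Col6a6 by -0.38 (SE 0.25) and Col23a1 by -0.10 (SE 0.33). None of these 7 passed the test. The exons of Col9a3 share 229 bases with Tcfl5 on the opposite strand, and those of Itga4 share 166 with Cerkl, and the strand setting of the counting is not given in the sources used here.

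No integrin subunit passed the test. Of 22 tested, 0 passed in either direction with edgeR, where 9.74% of all genes did. Most of the 22 had a mean under 10 CPM, where calls were rarer. Of all genes 5.11% passed at 1 to 10 CPM and 1.15% under 1 CPM. A negative log2 fold change was seen for 8 (36.4%, against 48.5% of all genes), and the median was 0.050. At an unadjusted p under 0.05, 2 were lower and 0 higher (14.4% and 13.8% of all genes). DESeq2 called 1 lower (Itgav, with 7.58% of all genes lower) and limma-voom 0 (4.99% of all genes lower). Itgb1 was at 453, 468 and 469 CPM in control and 426, 425 and 440.4 CPM in D-serine libraries. All D-serine values were under all controls, yet by little (log2 fold change -0.11, SE 0.039, adjusted p = 0.0989). Itgav, the alpha V subunit of receptors for fibronectin and vitronectin, was at 75.5, 82.9 and 78.0 CPM in control and 66.3, 72.6 and 71.4 CPM in D-serine libraries, also without overlap (log2 fold change -0.17, SE 0.054, adjusted p = 0.0667). With the length trend removed, Itgav differed by -0.074 on the log2 scale (adjusted p = 0.296, edgeR). Itga6 overlapped between the groups, at 395, 389.5 and 402 CPM in control and 379.8, 416 and 403 CPM in D-serine libraries (log2 fold change 0.014, SE 0.044, adjusted p = 0.872).

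The other subunits with at least 8 CPM had log2 fold changes near 0, and none passed the test. Itgb5 differed by 0.049 (SE 0.049), Itga3, a laminin receptor subunit, by 0.052 (SE 0.069), Itga1, a collagen receptor subunit, by 0.083 (SE 0.081) and Itga8 by -0.094 (SE 0.095) on the log2 scale. Rarer subunits were measured less precisely, with -0.046 (SE 0.19) for Itga10, 0.037 (SE 0.25) for Itga4, 0.11 (SE 0.30) for Itgal and 0.44 (SE 0.44) for Itgae. The balance of alpha 6 to beta 1 within a library, Itga6 over Itgb1 RPKM, was 0.607, 0.580 and 0.599 in control and 0.622, 0.682 and 0.638 in D-serine libraries, higher in each of the latter. Itga3 over Itgb1 was also higher in each, at 0.0374, 0.0367 and 0.0344 and 0.0393, 0.0402 and 0.0415. These ratios are not separate observations, since they share Itgb1, which was lower in each D-serine library, while Itga6 and Itga3 themselves overlapped between the groups. Itga1 over Itgb1 overlapped (0.0524, 0.0555 and 0.0476 and 0.0524, 0.0636 and 0.0613), as did Itgav over Itgb1 (0.0991, 0.105 and 0.0990 and 0.0926, 0.102 and 0.0964). Itga5 over Itgb1, the classical fibronectin receptor, overlapped at 0.00716, 0.00741 and 0.00892 and 0.00748, 0.00947 and 0.00818.

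The members that were higher in each D-serine library than in each control had few counts, and none of the 4 passed the test. They included Nid1, Itgb2 and Col16a1, which were singled out after their values were seen. Itgb2, the beta subunit of leukocyte integrins, had 59, 100 and 99 counts in the controls and 127, 104 and 122 with D-serine (log2 fold change 0.33, SE 0.19, adjusted p = 0.276). Col16a1, another collagen that attaches to fibrils, had 89, 106 and 95 counts in the controls and 212, 111 and 117 with D-serine. D-serine replicate 1 was far above the others, and the log2 fold change of 0.47 (SE 0.23, adjusted p = 0.193) came to 0.12 without it. Itga7, a laminin receptor subunit of muscle, had 166, 223 and 243 counts in the controls and 298, 291 and 244 with D-serine, and in CPM its groups overlapped (log2 fold change 0.28, SE 0.14, adjusted p = 0.191). The 11 that were lower in each D-serine library were the 6 that fell and Col4a1, Col6a5, Col20a1, Itgb1 and Itgav. Among members that could not be tested, Col13a1, a transmembrane collagen, had 0, 2 and 0 counts in the controls and 18, 7 and 0 with D-serine, so 1 library held most of its counts.

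Matrix genes are long, and fold changes ran with exonic length over the whole table. The median exonic length was 5665 bases for tested members, 8410 for the 6 that fell and 2835 for all genes tested. Among all genes of at least 6000 bases 12.3% were lower and 1.36% higher, and among those under 2000 bases 1.37% were lower and 7.08% higher. Of the members, 5 of 21 with at least 6000 bases fell (23.8%), 1 of 23 with 4000 to 6000 bases (8.84% of all such genes), and 0 of 9 with 2000 to 4000 bases (3.67% of all such genes). In the longest bin the median log2 fold change was -0.17 for members and -0.11 for all genes. Members that fell were also richer in G and C, with a median of 60.7% against 55.1% for tested members and 50.1% for all genes. Level moved with the calls too. Of 12 members with a mean of at least 50 CPM 4 fell (10.2% of all such genes), and of 24 members at 1 to 10 CPM 1 fell (0.657% of all such genes). The part of GC content and of level in the falls was not tested beyond the values below.

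**Figure D4:**
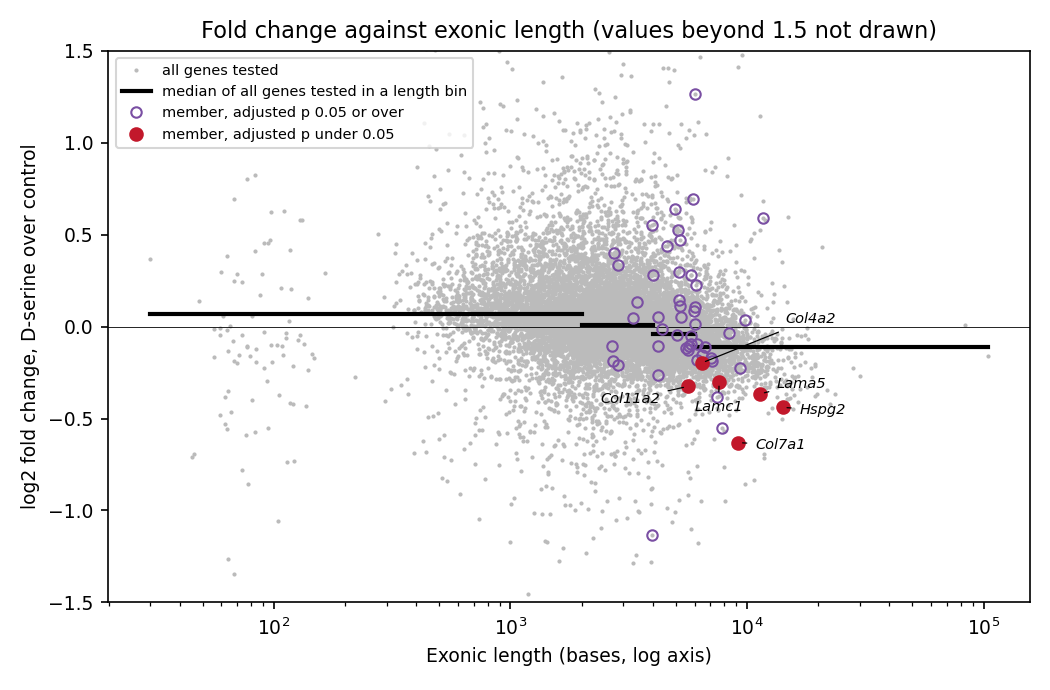
Log2 fold change, D-serine over control, against exonic length in bases on a log axis, for all genes tested (grey), members (open circles) and the 6 members with an adjusted p under 0.05 (filled). The median of all genes (black steps) slopes down from 0.069 under 2000 bases to -0.11 from 6000 bases on, and the 6 filled members lie under it.

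With each library's trend on length removed, the same 6 members fell and Lama4 rose, beside 7.63% of all genes lower and 7.65% higher. All 6 falls became smaller on the log2 scale. Hspg2 went from -0.44 to -0.27, Lama5 from -0.37 to -0.22 and Lamc1 from -0.30 to -0.20. Col4a2 went from -0.20 to -0.12, Col7a1 from -0.63 to -0.50 and Col11a2 from -0.33 to -0.26. Without D-serine replicate 1, these 6 and Col6a5 were lower and Fn1 and Lama4 higher, beside 6.76% and 5.78% of all genes. With both changes together, Col7a1, Lama5, Lamc1, Hspg2 and Col11a2 were lower and Fn1, Itga1 and Lama4 higher, beside 6.94% and 6.81% of all genes, and Col4a2 had an adjusted p of 0.0566. With trends on both GC content and length removed, Col7a1, Hspg2, Lama5 and Lamc1 remained lower, joined by Itgb1, and Itga6 and Lama4 were higher (6.97% and 6.77% of all genes). Col11a2 (0.0668) and Col4a2 (0.135) had an adjusted p above the threshold there. The scaling of libraries moved the balance of all calls, from 647 higher and 655 lower to 914 higher and 412 lower by upper quartile, where 5 members were lower, Col4a2 not among them.

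**Figure D5:**
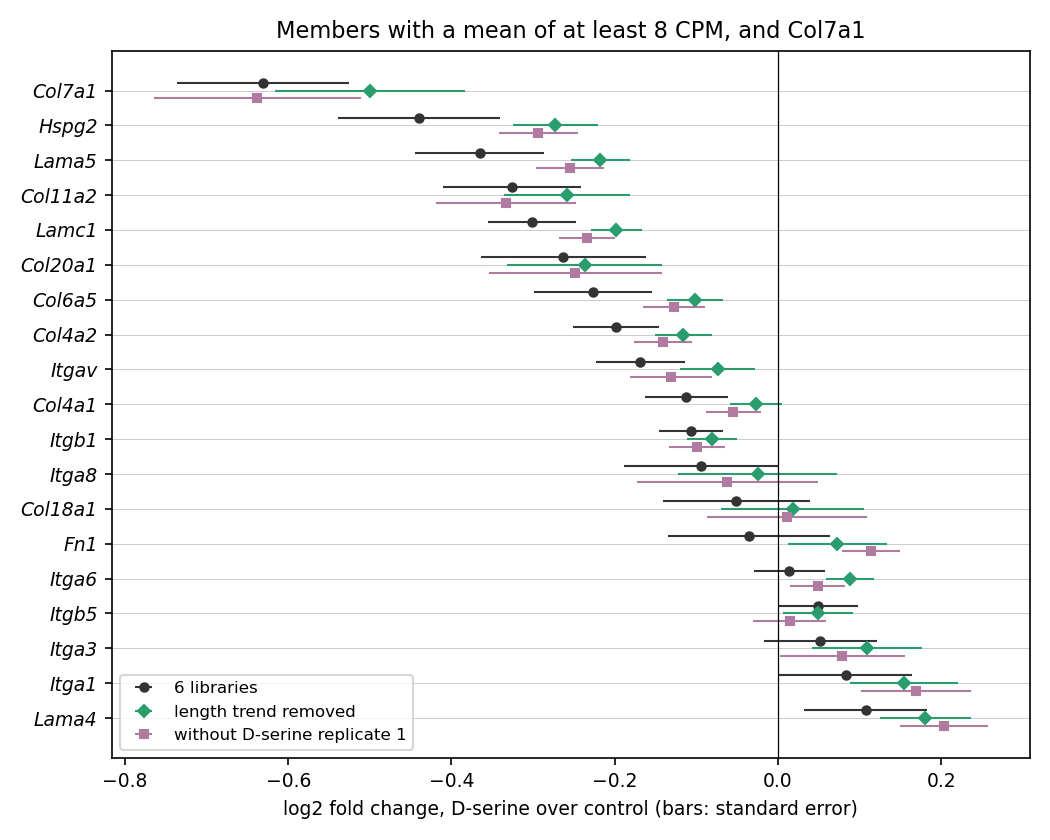
Log2 fold change with its standard error for members with a mean of at least 8 CPM and Col7a1, over all 6 libraries (circles), with the length trend removed (diamonds) and without D-serine replicate 1 (squares). Col7a1, Hspg2, Lama5, Col11a2 and Lamc1 lie under 0 in all 3, and Fn1 changes side.

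The machinery around the matrix was followed in 6 lists of other genes written from general knowledge. Of 118 such genes tested, 16 fell and 0 rose (13.6% lower, against 4.90% of all genes), and their median log2 difference was -0.078 beside 0.0053 for all genes. At an unadjusted p under 0.05, 39 were lower and 2 higher (14.4% and 13.8% of all genes). DESeq2 called 20 lower and limma-voom 16 (7.58% and 4.99% of all genes), and neither called any higher. The calls rest on the libraries used, since 1, 0 and 3 of these genes passed without control replicates 1, 2 and 3 and 5 without D-serine replicate 3. The drop was shared by the whole table, where 125, 68, 453 and 291 genes passed in these fits, against 1302 with all 6 libraries. With the length trend removed 23 were lower and 3 higher (7.63% and 7.65% of all genes).

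Focal adhesions, the plaques that join integrins to actin, gave 7 of these calls, out of 28 genes tested (25.0%, where 4.90% of all genes were lower). All 7 had a mean of at least 50 CPM, a range where 10.2% of all genes were lower. Actn4, an actin crosslinker, fell from 431 ± 6.25 to 375 ± 12.8 CPM (mean ± SD, n = 3 each), a log2 fold change of -0.20 (SE 0.041, adjusted p = 0.0142, edgeR). Vcl, vinculin, which couples the plaque to actin, fell from 124 ± 3.77 to 106 ± 7.06 CPM (mean ± SD, n = 3 each), a log2 fold change of -0.22 (SE 0.053, adjusted p = 0.0248, edgeR). These and the genes below are the 2 of each list with the smallest p. Of 24 genes of collagen folding and modification 3 were lower (12.5%). P3h1, a collagen prolyl 3-hydroxylase, fell from 27.0 ± 0.544 to 22.5 ± 0.703 CPM (mean ± SD, n = 3 each), a log2 fold change of -0.27 (SE 0.063, adjusted p = 0.0223, edgeR). P4ha2, a collagen prolyl 4-hydroxylase, fell from 79.8 ± 2.13 to 68.0 ± 4.79 CPM (mean ± SD, n = 3 each), a log2 fold change of -0.23 (SE 0.057, adjusted p = 0.0257, edgeR). These transcripts have 3364 and 2344 exonic bases, a range where 3.67% of all genes were lower. By level the share of all genes lower was 3.01% at 10 to 50 CPM, where P3h1 lies, and 10.2% from 50 CPM on, where P4ha2 lies. Of 19 matrix proteases and inhibitors 3 were lower (15.8%). Mmp17, a membrane-anchored metalloprotease, fell from 75.8 ± 2.08 to 62.7 ± 1.93 CPM (mean ± SD, n = 3 each), a log2 fold change of -0.28 (SE 0.049, adjusted p = 0.00967, edgeR). Adam9, a membrane-bound sheddase, fell from 402 ± 3.66 to 361 ± 9.53 CPM (mean ± SD, n = 3 each), a log2 fold change of -0.15 (SE 0.040, adjusted p = 0.0301, edgeR). Of 19 other matrix proteins 1 was lower, a share of 5.26% and thus close to that of all genes. Ltbp3, which tethers latent TGF beta to the matrix, fell from 63.0 ± 2.92 to 52.3 ± 1.37 CPM (mean ± SD, n = 3 each), a log2 fold change of -0.27 (SE 0.053, adjusted p = 0.0133, edgeR), and Fbln1 had an adjusted p of 0.0685. Of 15 genes of the TGF beta pathway 1 was lower (6.67%). Ski, a repressor of SMAD proteins, fell from 159 ± 2.06 to 139 ± 5.18 CPM (mean ± SD, n = 3 each), a log2 fold change of -0.18 (SE 0.044, adjusted p = 0.0232, edgeR), and Tgfb3 had an adjusted p of 0.0880. Of 13 matrix receptors other than integrins 1 was lower (7.69%), and both of these shares are also near the 4.90% of all genes. Gpc6, a glypican, fell from 42.7 ± 2.29 to 35.6 ± 2.12 CPM (mean ± SD, n = 3 each), a log2 fold change of -0.26 (SE 0.064, adjusted p = 0.0253, edgeR), and the laminin receptor Dag1 had an adjusted p of 0.166.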

How the data were processed

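Raw counts by gene for the 6 libraries were deposited as 1 table, with each gene's summed exonic length in bases and exon coordinates, laid out as featureCounts writes them, per the file headers. The submitters' processing notes name bcl2fastq, Trim Galore, HISAT2, featureCounts (Subread) and DESeq2, and the GRCm38 (mm10) build. Versions, the strand setting and whether reads of a pair were counted singly are not given in the sources used here. Of genes with 1 to 10 counts, 69.4% to 72.2% had an even count, against 49.0% to 51.0% of genes over 200 counts, so the low counts may hold both reads of a pair.

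D-serine was compared with control with edgeR 4.0.16 (R 4.3.3) on the deposited counts: filterByExpr, TMM scaling, and the quasi-likelihood test, two-sided, with Benjamini-Hochberg adjustment over all genes tested and a threshold of 0.05. CPM used TMM-scaled totals, and RPKM divided them by the deposited exonic length. No fitted sample was dropped or imputed unless named. The alternatives were DESeq2 1.42.0, limma-voom (limma 3.58.1), other scalings and filters, a replicate block, leaving out each library, and removing each library's trend on length or GC content (natural spline, 5 degrees of freedom, centred so that TMM scaling is kept). All 6 count columns were used. The code was tested on simulated data. Promoter windows and GC content came from the reference tables, and exon overlaps from bedtools 2.31.1.

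The members, lists and tests were chosen with earlier results of these data known. Named genes were members past the threshold, the 3 next by p, the 2 highest by RPKM of each class, and the 2 with the smallest p of each context list. Not every gene that this rule picks is reported here.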

Additional observations from a re-analysis of the deposited data

How the results depend on the processing

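Of 594 values of the 30 named members under 20 alternatives, 531 kept their direction and side of the threshold, 24 lost the call, 15 gained one and 24 changed sign, none of the last among the 6 members that fell. With 3 libraries a group, leaving out 1 gave 0 to 9 members past the threshold (0 to 7 lower, 0 to 2 higher) and 0 to 23 of the context genes. No member and no context gene passed without control replicate 2, where 68 genes of the whole table did, against 1302 with all 6 libraries. The cause was not tested. Depth limits the rare members most, those under about 1 CPM.

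Deviations of same-numbered libraries correlated at -0.0687, 0.0197 and -0.0187, and those of differently numbered libraries at -0.0761 to 0.0877. With 3 libraries a group, these values cannot decide whether replicate numbers pair the libraries. With replicate number as a block, 3 members passed, all lower (Col7a1, Hspg2 and Lamc1), 2 context genes passed, and 298 genes of the whole table did. With the block and the length trend removed, 6 members were lower (Col11a2, Col4a2, Col7a1, Hspg2, Lama5 and Lamc1) and 1 higher (Lama4). Of the 13366 genes tested in that fit, 955 were lower and 945 higher.

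Other scaling by upper quartile or library totals gave 9 context genes. With the length trend removed 6 members were lower and 1 higher (7.63% and 7.65% of all genes), and 26 context genes passed. With that trend removed and D-serine replicate 1 left out, 5 members were lower and 3 higher (6.94% and 6.81% of all genes). In that fit 25 context genes passed, and the median log2 fold change of tested members was 0.049. With GC and length trends removed, Col7a1, Hspg2, Itgb1, Lama5 and Lamc1 were lower and Itga6 and Lama4 higher. Of all genes 6.97% were lower and 6.77% higher there, and the median of tested members was 0.041. The GC alternatives and 1 with halved counts (6 members lower, where 684 of 12629 genes were lower) were added after seeing the data.

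Signs changed for members with values near 0. Leaving out single libraries put Col18a1 between -0.098 and 0.011, Col23a1 between -0.30 and 0.099, Fn1 between -0.13 and 0.11, Itga10 between -0.21 and 0.16 and Itgal between -0.013 and 0.25. Col18a1 came to 0.018 with the length trend removed, 0.018 with the block as well, 0.049 with D-serine replicate 1 also left out, 0.011 without D-serine replicate 1 and 0.051 with GC and length trends removed. In the same order Fn1 came to 0.073, 0.066, 0.17, 0.11 and 0.095, and Itga10 to 0.0022, 0.016, 0.12, 0.095 and 0.023, with 0.16 without control replicate 2. Col23a1 came to 0.14 and 0.099 without D-serine replicate 1, with and without removal of the length trend, and to 0.050 without control replicate 1. Itgal came to -0.013 without control replicate 1, Itga4 to -0.027 (control replicate 3 left out) and -0.015 (D-serine replicate 1 left out), Itga6 to -0.015 without D-serine replicate 2, and Col4a1 to 0.0025 with GC and length trends removed.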
